A study of Mus musculus with 15 samples.

Results

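Histone-modifying enzymes were followed across 4 states of microglia grown from mouse embryonic stem cells (ESdM). The members are the array probes whose annotated gene symbol is Hdac, Sirt, Kat, Kmt, Setd, Ezh, Prmt or Kdm followed by a number, with or without a letter, which gave 165 of 45281 probes, or 69 of 19057 genes. Of these, 90 probes of 56 genes were above background on at least 3 of 15 arrays and were tested. Cells of the C57BL/6 strain in N2 medium received IL-4 at 100 U/ml (n = 3), lipopolysaccharide at 500 ng/ml with interferon gamma at 20 ng/ml (LPS/IFNg, n = 3) or transforming growth factor beta at 50 ng/ml (TGFb, n = 3) for 24 h, or were left untreated (n = 6). All arrays thus share 1 strain and 1 stem cell source, and the labels number the replicates without saying whether they were separate cultures. P-values therefore rest on array-to-array spread only, part of which may be technical.

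Histone tails carry acetyl and methyl groups that open or close chromatin for transcription. Acetyltransferases (KAT) add acetyl groups to lysines, and classical deacetylases (HDAC) and the NAD-dependent sirtuins take them off. Lysine methyltransferases (KMT, SETD, EZH) and arginine methyltransferases (PRMT) add methyl groups, and lysine demethylases (KDM) remove them. In macrophages and microglia these enzymes are known for setting which inflammatory enhancers and promoters respond to a stimulus. The rule is one of names: Hdac6, Hdac10, the mitochondrial sirtuins and Setd3 act mostly on proteins or metabolites other than histones.

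Values are background-corrected, quantile-normalised log2 signals, and a gene is represented by its brightest tested probe unless another probe is named. A gene was called when its Benjamini-Hochberg adjusted p in limma, over all 15434 tested probes, was under 0.05. The arrays had 13601 to 14789 probes above background. They were spread over 3 chips, and no treatment had more than 1 array on a chip. LPS/IFNg replicate 3 stood apart: 227 probes were at least 2-fold off both other arrays of its group, against 0 to 10 for any other array. Microglia and macrophage markers such as Csf1r, Trem2, Adgre1 and Tyrobp were above background on all 15 arrays. Tmem119 and Cx3cr1, 2 further markers, were above background on all 3 TGFb arrays and on none of the others. Of the 11 tested markers of this kind, 4 were called higher with TGFb (Tmem119, Cx3cr1, Trem2 and Adgre1) and 1 lower. Sall1, also tested, was called with no stimulus. No marker of neurons, oligodendrocytes, fibroblasts or endothelium reached the 3 arrays above background needed for a test, while 3 of 7 astrocyte markers (Aldh1l1, Slc1a2 and Aldoc) and 1 of 7 stem cell markers (Pou5f1) did. Of the stimulus genes, Arg1, a gene induced by IL-4, was above background on the 3 IL-4 arrays alone. Nos2, which makes nitric oxide, was so on the 3 LPS/IFNg arrays alone. Skil, a TGFb target, was higher with TGFb by 4.61 ± 0.19 (log2 fold change ± SE). Not every such gene kept to 1 label: Skil was also higher with LPS/IFNg (1.62), and Cish with both IL-4 (3.575) and LPS/IFNg (2.757). Smaller rises were called for Tnf with TGFb (0.695) and Gbp2 with IL-4 (0.635). In cultured cells measured in bulk, fewer cells of a type and less RNA per cell cannot be told apart.

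With LPS/IFNg, 26 of the 56 genes were called (46.4%, against 54.1% of all 8561 genes tested), 12 higher and 14 lower, where 20.9% of all genes were higher and 33.2% lower. By probe, 43 of 90 were called, against 50.9% of all probes. The classical deacetylases were lower in 5 of 6 genes, among them Hdac10, whose LPS/IFNg signals were below background. The single changes of largest size were the falls of Hdac5, Prmt6 and Kdm2b and the rises of Kmt2a and Kat8. The median log2 fold change of the 56 genes was -0.07 against -0.083 for all genes. Without LPS/IFNg replicate 3, 16 genes were called (28.6%, against 46% of all genes), 6 higher and 10 lower, and each of these was among the 26. When the array medians were set equal in place of quantile normalisation, which moved the median of all probes to -0.145, 3 were higher and 10 lower. These array medians were taken over all 45281 probes, of which 15434 were above background on enough arrays to be tested.

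With TGFb, 23 of the 56 genes were called (41.1%, against 36.6% of all genes), 11 higher and 12 lower, where 18.7% of all genes were higher and 17.8% lower. By probe, 36 of 90 were called, against 33.4% of all probes. Lysine demethylases made up 5 of the 11 higher genes, with Kdm7a in front, while Kat2b, Kmt5a and Prmt1 were among the lower ones. The median log2 fold change of the 56 genes was 0.041 against -0.002 for all genes. The rises depended on the scaling: with equal array medians, which placed the median of all probes at -0.201, Kdm7a alone was called higher and 13 genes were called lower. With the medians of the probes above background set equal, a choice made after seeing the data, 9 were higher and 12 lower.

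With IL-4, 3 of the 56 genes were called (5.36%, against 10.1% of all genes): Kdm5a and Kmt2e were higher and Setd6 was lower, where 4.87% of all genes were higher and 5.23% lower. By probe, 5 of 90 were called, against 9.32% of all probes. The median of the 56 genes was 0.004 against -0.022 for all genes. With equal array medians Kdm5a alone was called. In all, 20 of the 56 genes were called with none of the stimuli by their brightest probe, among them Kat5, Kdm1a, Kdm6a, Kdm6b, Kmt2c, Kmt2d, Prmt5 and Sirt7. The matching share of all genes was not computed, so this count is a description only. Kmt5b, also among them, had 1 of its 4 probes called lower with LPS/IFNg. The median standard error of a member probe against untreated was 0.124. All 3 comparisons share the untreated arrays.

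**Figure D1:**
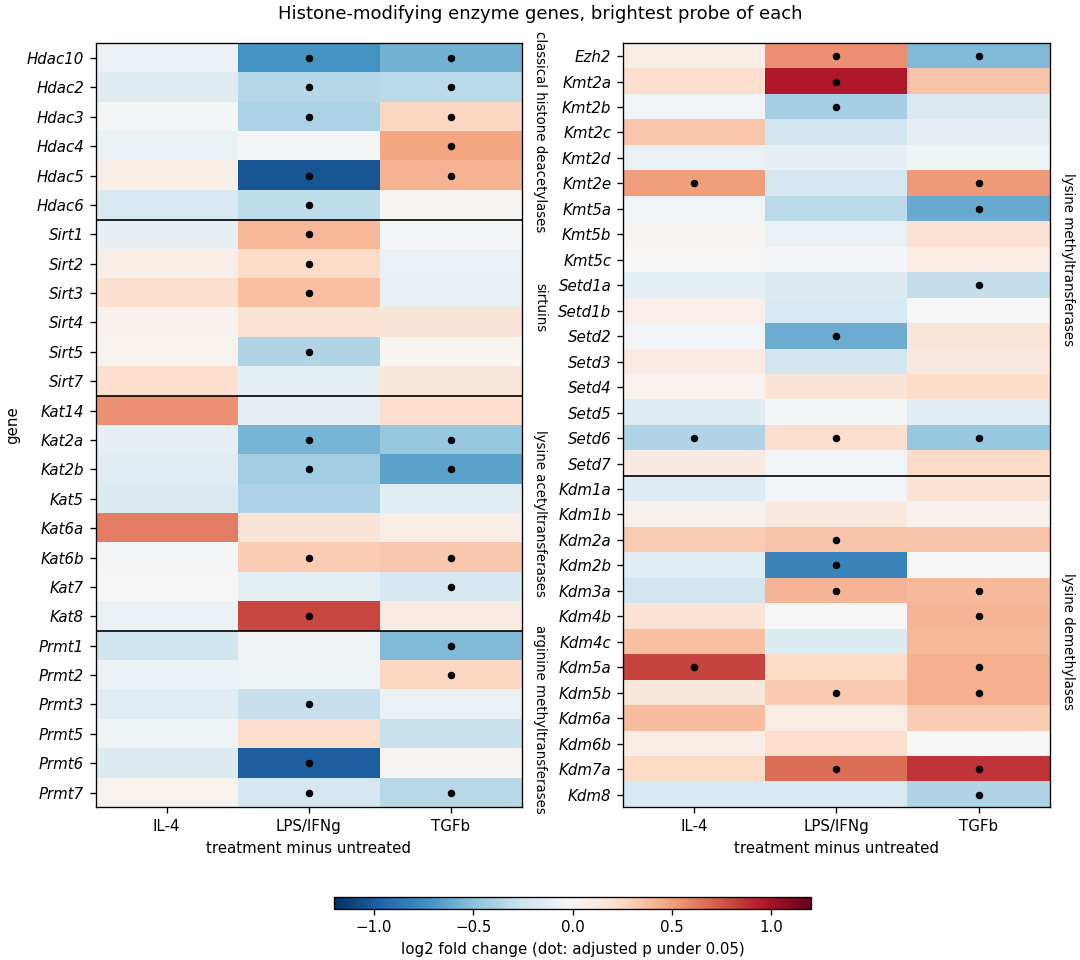
Log2 fold change of the 56 tested genes (rows, by enzyme family) with IL-4, LPS/IFNg and TGFb minus untreated (columns), from red (higher) to blue (lower), a dot marking adjusted p under 0.05. The IL-4 column has 3 dots, the LPS/IFNg column 26 and the TGFb column 23, and Hdac5 is the darkest blue cell with LPS/IFNg.

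The promoters of 4 genes with large changes are shown so that their base make-up can be seen beside the values. RefSeq (GRCm38.p6) supplied a promoter of 300 bases, from 250 before to 50 after the start, for 46 of the 56 genes. Letters in capitals mark a GC box (GGGCGG, the site bound by Sp1-like factors) or a CAGA box (CAGAC, bound by Smad proteins), either of them read on both strands.
Hdac5 (chr11:102230123-102230422, minus strand): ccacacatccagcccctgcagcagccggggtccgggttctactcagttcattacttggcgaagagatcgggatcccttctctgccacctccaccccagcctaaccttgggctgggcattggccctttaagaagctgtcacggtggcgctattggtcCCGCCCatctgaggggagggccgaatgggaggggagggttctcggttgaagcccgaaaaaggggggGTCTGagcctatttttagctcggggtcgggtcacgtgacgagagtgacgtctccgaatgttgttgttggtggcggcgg
Prmt6 (chr3:110250950-110251249, minus strand): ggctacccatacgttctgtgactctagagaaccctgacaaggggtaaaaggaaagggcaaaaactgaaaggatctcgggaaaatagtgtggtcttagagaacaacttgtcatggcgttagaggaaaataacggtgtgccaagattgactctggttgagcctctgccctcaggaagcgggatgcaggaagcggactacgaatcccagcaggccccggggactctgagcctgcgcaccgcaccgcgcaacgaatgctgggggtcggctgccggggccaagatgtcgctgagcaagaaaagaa
Kmt2a (chr9:44881240-44881539, minus strand): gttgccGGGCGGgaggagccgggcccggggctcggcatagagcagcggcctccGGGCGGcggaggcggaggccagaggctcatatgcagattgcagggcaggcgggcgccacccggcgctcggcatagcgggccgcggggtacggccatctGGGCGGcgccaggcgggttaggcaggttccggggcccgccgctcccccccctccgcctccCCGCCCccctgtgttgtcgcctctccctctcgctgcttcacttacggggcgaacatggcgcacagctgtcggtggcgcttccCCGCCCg
Kdm7a (chr6:39206724-39207023, minus strand): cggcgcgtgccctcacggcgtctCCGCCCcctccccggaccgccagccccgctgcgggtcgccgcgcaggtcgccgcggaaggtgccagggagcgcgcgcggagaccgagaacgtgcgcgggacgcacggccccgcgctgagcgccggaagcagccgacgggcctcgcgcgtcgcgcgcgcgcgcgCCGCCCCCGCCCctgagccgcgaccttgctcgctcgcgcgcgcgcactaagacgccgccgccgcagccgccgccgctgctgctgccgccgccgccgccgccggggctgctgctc
The Hdac5 promoter holds 1 GC box and 1 CAGA box, the Kmt2a and Kdm7a promoters hold GC boxes alone, and the Prmt6 promoter holds neither. Over the 61 promoters of tested members, 68.9% held a GC box against 35.7% of all 32851 promoters in the table, and 29.5% held a CAGA box against 49.6%. The interferon-stimulated response element core (GAAA, any 2 bases, GAAA) was in 1.64% of member promoters against 3.44% of all, both strands being read for each motif. A GC box and a CAGA box can share a single letter. Member promoters had a median of 24 CpG dinucleotides against 7 over all promoters, and a GC content of 62.0% against 52.7%. The 61 windows belong to 46 genes, and some windows of the same gene overlap. The members were limited to genes above background, whereas the set of all promoters was not. These differences therefore cannot be read as particular to histone-modifying enzymes. A match of letters is a description of the window and not a binding site.

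Hdac5, a class IIa deacetylase that shuttles between nucleus and cytoplasm and holds MEF2 factors in check, had log2 signals of 9.28, 9.41 and 9.01 on the LPS/IFNg arrays, 10.70, 10.61 and 10.76 on the TGFb arrays and 10.12 to 10.44 (median 10.26) on the untreated arrays. All LPS/IFNg arrays lay below, and all TGFb arrays above, every untreated array. The change was -1.04 ± 0.10 with LPS/IFNg (adjusted p = 6.8e-07) and 0.42 ± 0.10 with TGFb (adjusted p = 0.0046). A second probe gave -0.83 with LPS/IFNg and 0.45 with TGFb, both called. The dimmest of the 3 probes was above background on no LPS/IFNg array and on all 6 untreated arrays, so its fall is a bound of at least 1.16-fold. Its adjusted p in limma (0.0029) belongs to the signals below background and not to the bound. This probe rose by 0.59 with TGFb. With equal array medians, the TGFb value was 0.19 (adjusted p = 0.47). It was 0.44 with cyclic loess and 0.39 with equal medians of the probes above background, both called. IL-4 gave 0.07 ± 0.10.

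Hdac3, the catalytic subunit of the NCoR and SMRT corepressors, showed the same pair of directions with smaller changes. It read 10.35, 10.18 and 10.14 with LPS/IFNg, 10.99, 10.70 and 10.88 with TGFb and 10.50 to 10.64 (median 10.63) untreated. No treated array of these 2 groups lay within the untreated range. The change was -0.38 ± 0.08 with LPS/IFNg (adjusted p = 0.00088) and 0.25 ± 0.08 with TGFb (adjusted p = 0.021). The TGFb call was lost without TGFb replicate 1 or 3, and with equal array medians the value was 0.02. Cyclic loess (0.27) and equal medians of the probes above background (0.22) kept the call.

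Hdac10, a polyamine deacetylase, was above background on 2 of 3 IL-4 arrays, on no LPS/IFNg or TGFb array and on 5 of 6 untreated arrays. Its readings were 5.24, 5.13 and 5.02 with LPS/IFNg, 5.32, 5.37 and 5.16 with TGFb and 5.57 to 6.11 (median 5.80) untreated. The signals were close to background, so the falls are given as bounds: at least 1.05-fold lower with LPS/IFNg and at least 1.11-fold lower with TGFb. Both were called in limma (adjusted p = 0.0003 and 0.0032), a fit of the signals below background and not of the bounds. Hdac10 passed the filter through the untreated and IL-4 arrays, so its falls are given as a description. Each bound sets the group at the lowest signal of any probe above background on its arrays.

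Among the remaining deacetylases, Hdac2, a subunit of the Sin3, NuRD and CoREST complexes, fell by 0.34 with LPS/IFNg and by 0.32 with TGFb. Hdac6, the tubulin deacetylase, changed by -0.31 with LPS/IFNg (adjusted p = 0.033), and by -0.19 (adjusted p = 0.21) without LPS/IFNg replicate 3. Its call was lost in 4 of 15 leave-one-out fits. Within the first of the 3 chips the difference for Hdac6 was 0.0016. Hdac4, the class IIa relative of Hdac5, read 9.10, 8.92 and 9.10 with TGFb and 8.19 to 8.73 (median 8.66) untreated, a rise of 0.47 ± 0.12 (adjusted p = 0.0058) that was 0.25 (adjusted p = 0.31) with equal array medians. The Hdac4 rise stayed called with cyclic loess (0.50) and with equal medians of the probes above background (0.45). With LPS/IFNg, Hdac4 changed by -0.03 ± 0.12. The family median with LPS/IFNg was -0.358 against -0.083 for all genes, and 4 of 6 were lower both without replicate 3 and with equal array medians. Hdac10, on signals below background, is among the lower genes in these counts and in those with TGFb. With TGFb, 3 were higher and 2 lower (83.3%, against 36.6% of all genes), and the family median was 0.141 against -0.002 for all genes. With equal array medians it was -0.072 against -0.191 for all genes, and none of the 3 rises was called. The family median relative to all genes was thus 0.143 under the first scaling and 0.12 under the second.

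Sirtuins, the NAD-dependent deacylases, were called with LPS/IFNg alone, 3 higher and 1 lower of 6 (66.7%, against 54.1% of all genes). Sirt1, the main nuclear sirtuin, read 9.71, 9.62 and 9.72 with LPS/IFNg and 9.12 to 9.41 (median 9.31) untreated. Every LPS/IFNg array exceeded every untreated array, with a change of 0.40 ± 0.07 (adjusted p = 0.00038) that stayed between 0.37 and 0.43 when any 1 array was left out. Sirt3, a mitochondrial deacetylase, was higher by 0.36 ± 0.10 (adjusted p = 0.0097), and Sirt2, which acts on tubulin, by 0.23 ± 0.09 (adjusted p = 0.038), a call lost in 6 of 15 leave-one-out fits, among them the one without LPS/IFNg replicate 3 (0.14, adjusted p = 0.22). Sirt5, a mitochondrial desuccinylase, was lower by 0.37 on the log2 scale (-0.37 ± 0.07, adjusted p = 0.00069). With equal array medians none of the 3 rises was called, Sirt1 standing at 0.31 (adjusted p = 0.14), and Sirt5 was -0.46 (adjusted p = 0.026). All 3 rises were called with cyclic loess and with equal medians of the probes above background, Sirt1 at 0.49 and 0.41. Sirt4 and Sirt7 were called with no stimulus. IL-4 and TGFb called no sirtuin, against 10.1% and 36.6% of all genes, the 6 values lying between -0.09 and 0.21 with IL-4.

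Kat8 (MOF), which acetylates histone H4, had the clearest rise among the acetyltransferases. It read 9.28, 9.11 and 9.36 with LPS/IFNg and 8.24 to 8.62 (median 8.46) untreated. The groups did not overlap, and the change was 0.80 ± 0.09 (adjusted p = 3e-06), 0.74 without LPS/IFNg replicate 3 and 0.71 with equal array medians. IL-4 gave -0.08 and TGFb 0.10 for the same probe.

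Kat2b (PCAF), a coactivator acetyltransferase, read 6.18, 6.10 and 6.43 with TGFb and 6.56 to 7.12 (median 6.98) untreated. No TGFb array reached the untreated range, and the change was -0.65 ± 0.17 (adjusted p = 0.0083), with the second probe at -0.50. With LPS/IFNg, Kat2b read 6.84, 6.61 and 5.94, a change of -0.42 (adjusted p = 0.049) that was -0.16 (adjusted p = 0.4) without replicate 3 and lost its call in 12 of 15 leave-one-out fits. Its paralogue Kat2a (GCN5) changed by -0.55 with LPS/IFNg (adjusted p = 0.0095) and -0.46 with TGFb (adjusted p = 0.039). Without LPS/IFNg replicate 3 the first value was -0.37 (adjusted p = 0.081). Kat6b (MORF) was higher with both, by 0.31 and 0.32, and Kat7 (HBO1) was lower with TGFb by 0.19 on the log2 scale (-0.19 ± 0.07, adjusted p = 0.04). The LPS/IFNg call of Kat6b was lost without replicate 3 (0.22, adjusted p = 0.19), and the TGFb calls of Kat2a, Kat6b and Kat7 were each lost in 7 to 9 of 15 leave-one-out fits. Kat6a and Kat14 had the 2 largest differences with IL-4 in the family, 0.61 ± 0.23 (adjusted p = 0.11) and 0.54 ± 0.28 (adjusted p = 0.24), and neither passed the test. Kat6a was above background on 3 of 15 arrays.

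Kmt2a (MLL1), which methylates histone H3 at active promoters, had the largest rise of any member with LPS/IFNg. It read 10.92, 10.72 and 11.27, against 9.87 to 10.25 (median 9.94) untreated, with no overlap. The change was 0.96 ± 0.13 (adjusted p = 2.9e-05), 0.82 without replicate 3, and the second probe rose by 0.44. Its paralogue Kmt2b (MLL2) went the other way, at -0.40 ± 0.12 (adjusted p = 0.012), but stood at -0.20 (adjusted p = 0.092) without replicate 3. Setd2, which lays methyl groups along transcribed gene bodies, read 10.55, 10.45 and 9.99 with LPS/IFNg and 10.84 to 11.05 (median 10.92) untreated. The groups did not overlap. Setd2 changed by -0.59 ± 0.11 (adjusted p = 0.00027) and by -0.42 without replicate 3, and a second probe was called at -0.89. The dimmest of its 3 probes was above background on no LPS/IFNg array and on 5 of 6 untreated arrays, a fall of at least 1.18-fold. The adjusted p of that probe in limma (0.013) belongs to the signals below background and not to the bound.

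Ezh2, the catalytic subunit of Polycomb repressive complex 2, was called in opposite directions. It read 9.53, 9.23 and 9.76 with LPS/IFNg, 8.70, 8.27 and 8.33 with TGFb and 8.51 to 9.28 (median 9.0) untreated, so that both groups overlapped the untreated arrays. The changes were 0.55 ± 0.18 (adjusted p = 0.017) and -0.53 ± 0.18 (adjusted p = 0.031). Without LPS/IFNg replicate 3 the first was 0.42 (adjusted p = 0.1), and the second was lost in 5 of 15 leave-one-out fits. A dimmer second probe was above background on 1 of 3 IL-4 arrays, on all LPS/IFNg and TGFb arrays and on 2 of 6 untreated arrays. It passed the filter through the treated groups, and its values of 0.54 with LPS/IFNg and 0.23 with TGFb (adjusted p = 0.26) are given as a description. The summed signal of 18 cell cycle genes was lower with all 3 stimuli, whereas Ezh2 was called higher with LPS/IFNg and lower with TGFb. With IL-4 the 2 Ezh2 probes stood at 0.05 and 0.07 without a call. The sum ranged from 30196 to 32168 with IL-4, 29144 to 30888 with LPS/IFNg and 28999 to 29794 with TGFb, against 36576 to 38665 untreated. With IL-4, 11 of the 18 genes were called lower, and 3 with equal array medians. With LPS/IFNg 11 were lower and 1 higher, and with TGFb 14 were lower and 0 higher. Their part in the Ezh2 values was not tested.

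Setd6, known for methylating the NF-kappaB subunit RelA, was called with all 3 stimuli. It read 10.13, 9.96 and 9.996 with IL-4, 10.57, 10.51 and 10.65 with LPS/IFNg, 9.86, 9.90 and 10.03 with TGFb and 10.24 to 10.52 (median 10.38) untreated. IL-4 and TGFb arrays lay below every untreated array, and LPS/IFNg arrays overlapped the upper end. The changes were -0.36 ± 0.08 with IL-4 (adjusted p = 0.0098), 0.19 ± 0.08 with LPS/IFNg (adjusted p = 0.048) and -0.46 ± 0.08 with TGFb (adjusted p = 0.00035). A second probe was called lower with IL-4 and TGFb, by -0.44 in the first case, and was 0.16 and not called with LPS/IFNg. The rise with LPS/IFNg was 0.16 (adjusted p = 0.16) without replicate 3 and was not called in 11 of 15 leave-one-out fits, and the IL-4 call was lost without IL-4 replicate 3 (adjusted p = 0.051).

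Kmt2e (MLL5), a SET domain protein without settled enzyme activity, read 9.91, 9.65 and 9.91 with IL-4, 10.01, 9.92 and 9.56 with TGFb and 8.90 to 9.65 (median 9.35) untreated. Both treated groups reached into the top of the untreated range. The changes were 0.50 ± 0.14 with IL-4 (adjusted p = 0.037) and 0.51 ± 0.14 with TGFb (adjusted p = 0.012), the first lost in 6 of 15 leave-one-out fits and the second without TGFb replicate 1 or 2. Kmt5a, the histone H4 monomethylase of dividing cells, read 9.74, 9.49 and 9.93 with TGFb and 10.06 to 10.50 (median 10.34) untreated. The groups did not overlap, and the change was -0.61 ± 0.18 (adjusted p = 0.017, lost without TGFb replicate 2), with all 3 probes called lower. Setd1a, which methylates histone H3 at promoters, was at -0.28 ± 0.08 with TGFb (adjusted p = 0.017), a call lost without TGFb replicate 1 or 2 (adjusted p up to 0.098). The lower summed signal of cell cycle genes given beside Ezh2 applies to Kmt5a as well. Of 17 tested lysine methyltransferases, 3 were higher and 2 lower with LPS/IFNg (1 and 1 without replicate 3), and 1 was higher and 4 lower with TGFb. In each case 29.4% were called, against 54.1% of all genes with LPS/IFNg and 36.6% with TGFb.

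**Figure D2:**
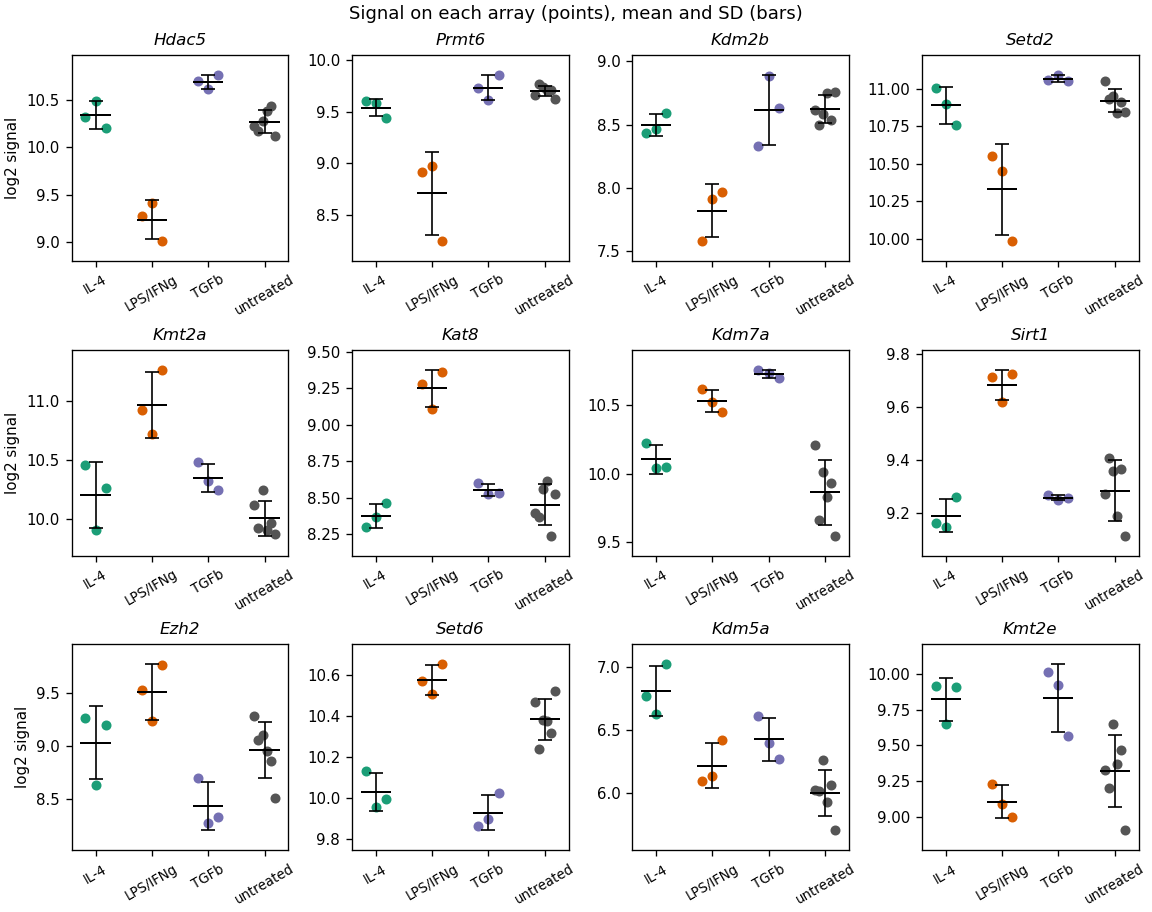
Background-corrected, quantile-normalised log2 signal of 12 genes on each of 15 arrays (points), by group from IL-4, LPS/IFNg and TGFb to untreated, with the group mean (line) and SD (bar). The 3 LPS/IFNg points of Hdac5, Prmt6, Kdm2b and Setd2 lie below all untreated points, and those of Kmt2a, Kat8, Kdm7a and Sirt1 lie above them.

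Prmt6, which methylates an arginine of histone H3 that neighbours the promoter mark of Kmt2a, read 8.91, 8.97 and 8.24 with LPS/IFNg and 9.63 to 9.77 (median 9.71) untreated. The untreated arrays sat within a narrow band, and each LPS/IFNg array lay below it. The change was -0.99 ± 0.13 (adjusted p = 1.2e-05), and -0.76 without replicate 3, the lowest of the 3 arrays. Of the 4 tested probes, 3 fell, by 0.97 to 1.17, and the dimmest, above background on 4 of 6 untreated arrays, rose by 0.89 ± 0.13 (adjusted p = 4.6e-05). Prmt6 was at -0.16 with IL-4 and 0.03 with TGFb.

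Prmt1, the main arginine methyltransferase of mammalian cells, read 11.69, 11.36 and 11.60 with TGFb and 11.998 to 12.14 (median 12.08) untreated. Every TGFb array was below every untreated one, with a change of -0.53 ± 0.09 (adjusted p = 0.00028). Prmt7 fell by 0.33 with TGFb. With LPS/IFNg it was at -0.21, a call lost in 4 of 15 leave-one-out fits, with cyclic loess (-0.10, adjusted p = 0.3) and with the medians of the probes above background set equal (-0.15, adjusted p = 0.14). Prmt2 was higher with TGFb by 0.25 ± 0.08 (adjusted p = 0.027, and 0.02 with equal array medians), a call lost in 4 of 15 leave-one-out fits. Prmt3, which acts on a ribosomal protein, fell by 0.28 with LPS/IFNg on its bright probe, whereas a dim probe above background on 1 of 6 untreated arrays rose by 0.60 with LPS/IFNg and by 0.55 with IL-4. With LPS/IFNg, 3 of 6 arginine methyltransferases were lower and none higher, 3 without replicate 3 and 1 with equal array medians. Of all genes, 33.2% were lower and 20.9% higher.

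Kdm2b, a demethylase that also brings Polycomb complexes to CpG islands, read 7.58, 7.92 and 7.97 with LPS/IFNg and 8.50 to 8.75 (median 8.6) untreated. There was no overlap, and the change was -0.80 ± 0.12 (adjusted p = 4.3e-05) and -0.87 without replicate 3. A second probe, above background on 1 of 3 LPS/IFNg arrays and 6 of 6 untreated arrays, fell by 1.1. The remaining one stood at -0.41 without a call. With TGFb the bright probe gave -0.01 and the second probe -0.62, which was called.

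Kdm7a, which removes repressive methyl groups from histone H3, rose with 2 stimuli. It read 10.62, 10.53 and 10.45 with LPS/IFNg, 10.76, 10.74 and 10.70 with TGFb and 9.54 to 10.21 (median 9.88) untreated. Both groups lay above every untreated array. The changes were 0.67 ± 0.12 (adjusted p = 0.00024) and 0.87 ± 0.12 (adjusted p = 5.3e-05), the second probe rose by 0.23 and 0.52, and both changes were called with equal array medians, at 0.60 and 0.64. Kdm3a, a demethylase known to respond to low oxygen, was higher by 0.41 ± 0.11 with LPS/IFNg (adjusted p = 0.007) and 0.39 ± 0.11 with TGFb (adjusted p = 0.014, and 0.051 without TGFb replicate 2), with all 3 probes called in the first case. Unlike those of Kdm7a, both Kdm3a calls were lost with equal array medians, at 0.31 (adjusted p = 0.2) and 0.16 (adjusted p = 0.56). Both were called with cyclic loess (0.49 and 0.42) and with equal medians of the probes above background (0.42 and 0.36).

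Kdm5a, which erases the promoter mark laid by Kmt2a, had the largest change with IL-4. It read 6.77, 6.63 and 7.02 with IL-4, 6.61, 6.40 and 6.27 with TGFb and 5.70 to 6.26 (median 6.02) untreated. Every IL-4 array exceeded every untreated array, and the lowest TGFb array did so by a small margin. The changes were 0.81 ± 0.12 with IL-4 (adjusted p = 0.00088) and 0.43 ± 0.12 with TGFb (adjusted p = 0.015, lost without TGFb replicate 1). The signal was dim, above background on 5 of 6 untreated arrays, and IL-4 kept its call in each of 15 leave-one-out fits (0.70 to 0.90). The related Kdm5b was higher with TGFb by 0.43 ± 0.09 and with LPS/IFNg by 0.31 ± 0.09. The LPS/IFNg value was 0.16 (adjusted p = 0.084) without LPS/IFNg replicate 3. A second Kdm5b probe was called higher with TGFb (0.45) but stood at -0.03 without a call with LPS/IFNg. With equal array medians the bright probe gave 0.30 with TGFb (adjusted p = 0.11) and 0.27 with LPS/IFNg (adjusted p = 0.13). Both values of this probe were called with cyclic loess and with equal medians of the probes above background.

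Of the other demethylases, Kdm2a was higher with LPS/IFNg by 0.34 (adjusted p = 0.044, lost in 11 of 15 leave-one-out fits). Kdm4b was higher with TGFb by 0.41 ± 0.09, and by 0.17 (adjusted p = 0.44) with equal array medians. Cyclic loess gave 0.42 and equal medians of the probes above background 0.37, both called. A second Kdm4b probe stood at 0.11 without a call with TGFb and was called lower with LPS/IFNg (-0.53). Kdm8 was at -0.36 ± 0.13 with TGFb, a call lost in 7 of 15 leave-one-out fits (adjusted p up to 0.16). Of 13 tested demethylases, 4 were higher and 1 lower with LPS/IFNg (2 and 1 without replicate 3, 1 and 1 with equal array medians). These were 38.5%, against 54.1% of all genes. With TGFb, 5 were higher and 1 lower (1 and 1 with equal array medians), which were 46.2%, against 36.6% of all genes. The family median with TGFb was 0.338 against -0.002 for all genes, and 0.108 against -0.191 with equal array medians. Kdm6b (JMJD3), known from macrophages as a gene induced by LPS, changed by 0.21 ± 0.18 with LPS/IFNg (adjusted p = 0.35) and was above background on 10 of 15 arrays.

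**Figure D3:**
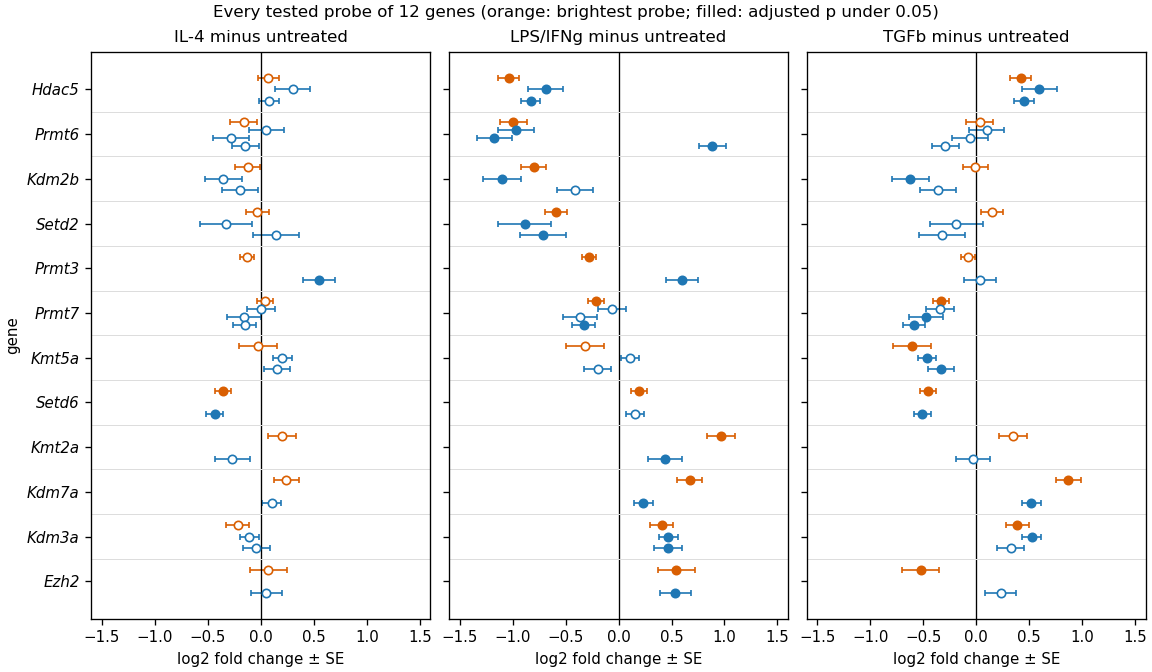
Log2 fold change ± SE of every tested probe of 12 genes with IL-4, LPS/IFNg and TGFb minus untreated, the brightest probe in orange, filled symbols having adjusted p under 0.05. All probes of Hdac5 and Setd2 are filled and left of 0 with LPS/IFNg, while 1 probe each of Prmt6 and Prmt3 lies on the other side; the dimmest probe of Hdac5 and of Setd2 was above background on no LPS/IFNg array.

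The stimuli were also set against each other. LPS/IFNg against IL-4 called 20 of 56 genes (35.7%, against 48.7% of all genes), 6 higher and 14 lower, beside 20.6% of all genes higher and 28.2% lower, and 34 of 90 probes against 45.1% of all probes. The highest were Kat8 at 0.88, Kmt2a at 0.76, Kdm3a at 0.63, Setd6 at 0.55 and Sirt1 at 0.49, and the lowest were Hdac5 at -1.11, Prmt6 at -0.83, Kmt2e at -0.72, Kdm2b at -0.68 and Hdac10, whose LPS/IFNg signals were below background. LPS/IFNg against TGFb called 24 (42.9%, against 53.9%), 9 higher and 15 lower, beside 22.6% of all genes higher and 31.3% lower, and 39 of 90 probes against 50% of all probes. Ezh2 differed by 1.07, Kat8 by 0.70, Setd6 by 0.65, Kmt2a by 0.62 and Prmt5, the main symmetric arginine methyltransferase, by 0.48. On the lower side stood Hdac5 at -1.46, Prmt6 at -1.02, Kdm2b at -0.79, Setd2 at -0.74 and Kmt2e at -0.73. The Ezh2 difference was 0.95 and that of Prmt5 0.39 (adjusted p = 0.092) without LPS/IFNg replicate 3, and the Prmt5 call was also lost without TGFb replicate 2. Equal array medians moved the median of all probes in this comparison to 0.076, against -0.044, and the split of called member probes to 15 higher and 9 lower, against 14 higher and 25 lower.

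IL-4 against TGFb called 11 (19.6%, against 27.9%), 4 higher and 7 lower, beside 12.6% of all genes higher and 15.3% lower, and 19 of 90 probes against 25.4% of all probes. Ezh2 at 0.60, Hdac10, Prmt7 at 0.37 and Prmt1 at 0.29 were higher with IL-4. Kdm7a at -0.63, Kdm3a at -0.61, Hdac4 at -0.55, Hdac5 at -0.35 and Kdm1a (LSD1), a demethylase of the CoREST complex, at -0.32 were lowest. With equal array medians these 5 all lost their call (adjusted p from 0.1 for Kdm7a to 0.57 for Hdac5), as did Prmt1 (adjusted p = 0.094). Under that scaling 4 member probes were called higher and 0 lower. The calls of Ezh2 and Prmt1 were lost in 9 and 12 of 15 leave-one-out fits, that of Hdac5 in 4, and those of Hdac10 and Kdm1a in 2 each.

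Partner proteins and further enzymes were taken from lists of complexes and pathways. Their counts stand beside the share of all genes called, 10.1% with IL-4, 54.1% with LPS/IFNg and 36.6% with TGFb. With LPS/IFNg, COMPASS subunits (4 of 8), corepressor subunits (9 of 17), other methyltransferases (4 of 11), other acetyltransferases (4 of 10) and readers (2 of 4) were called at or below that share. With LPS/IFNg, 4 of 5 other demethylases and jumonji proteins were lower, led by Phf8, an X-linked demethylase of histone H3, at -1.45 ± 0.09 (adjusted p = 6.3e-09), with Riox1 at -0.63, while Riox2 was higher by 0.39. Phf8 was also lower with IL-4 (-0.40 ± 0.09) and with TGFb (-0.34 ± 0.09). Of 18 Polycomb subunits other than Ezh, 6 were higher and 6 lower with LPS/IFNg, with Pcgf5, a subunit of variant PRC1, at 1.5 ± 0.09 (adjusted p = 4.5e-09) and Pcgf1 at 0.60, and with Cbx8 at -0.94 and Cbx6 at -0.65, both chromodomain subunits of canonical PRC1. These counts were 4 and 5 without LPS/IFNg replicate 3. With TGFb, 3 were lower, Rbbp7 and Cbx2 by most, and with IL-4 Cbx2 alone (-0.48).

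Among 17 subunits of HDAC corepressor complexes, 3 were higher and 6 lower with LPS/IFNg, from Gatad2b at 0.92 and Tbl1x at 0.77 to Mbd3 at -0.55 and the NuRD helicase Chd3 at -0.86. Of this list Sap130 was higher with TGFb and IL-4 (0.23 and 0.30), and Sap30 was lower with IL-4 (-0.43). Of 8 COMPASS subunits, which carry the Kmt2 and Setd1 enzymes, Cxxc1 was higher with LPS/IFNg (0.41) and 3 were lower, Wdr5 (-0.52) and Men1 (-0.46) by most. Leaving out LPS/IFNg replicate 3 gave 1 higher and 2 lower. Ash2l (-0.45) and Dpy30 (-0.35) were lower with TGFb. All 3 tested DNA methylation enzymes were lower with LPS/IFNg, Uhrf1 at -0.72, Dnmt3b at -0.53 and Dnmt1 at -0.29, and Uhrf1 was lower with TGFb (-0.25). Equal array medians left 2 of the 3 lower with LPS/IFNg.

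Other acetyltransferases and their partners had 1 higher and 3 lower of 10 with LPS/IFNg, Hat1 at 0.39, Ing4 at -0.48 and Trrap at -0.48. When LPS/IFNg replicate 3 was left out, 1 was lower, Trrap standing at -0.43 (adjusted p = 0.054). Ing4, a subunit of the HBO1 acetyltransferase complex, was higher with TGFb by 0.84 ± 0.08 (adjusted p = 2.8e-06), the reverse of its direction with LPS/IFNg. Elp3 (-0.23) and Hat1 (-0.22) were lower with TGFb. Other methyltransferases had 1 higher and 3 lower of 11 with LPS/IFNg, Prdm2 at 0.72 (0.51, adjusted p = 0.07, without LPS/IFNg replicate 3), Nsd2 at -0.63 and Smyd2 at -0.41. With TGFb, Smyd5 (-0.56) and Carm1 (-0.52) were the lowest of 3 lower genes. Among 4 readers, Brd2 was higher (0.45) and Brd3 lower (-0.40, and -0.36 with adjusted p = 0.085 without LPS/IFNg replicate 3), and Cbx5 was lower with TGFb (-0.50).

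Enzymes that make or use the cosubstrates were called in 7 of 12 genes with LPS/IFNg, 2 higher and 5 lower. Nampt, the rate-limiting enzyme of NAD salvage on which sirtuins depend, was higher by 1.23 ± 0.14 (adjusted p = 4.4e-06), and Acss2, which makes acetyl-CoA from acetate, by 1.09 ± 0.09 (adjusted p = 6.4e-08). Idh1, which makes the ketoglutarate that jumonji demethylases use, was lower at -1.03 ± 0.16 (adjusted p = 9.2e-05), and Idh3a at -0.87. The counts were 4 and 5 without LPS/IFNg replicate 3. With TGFb, 7 of 12 were lower and none higher, among them Nadk at -0.51 and Naprt, which was above background on none of the 3 TGFb arrays. Ogdh was higher with IL-4 (0.26).

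**Figure D4:**
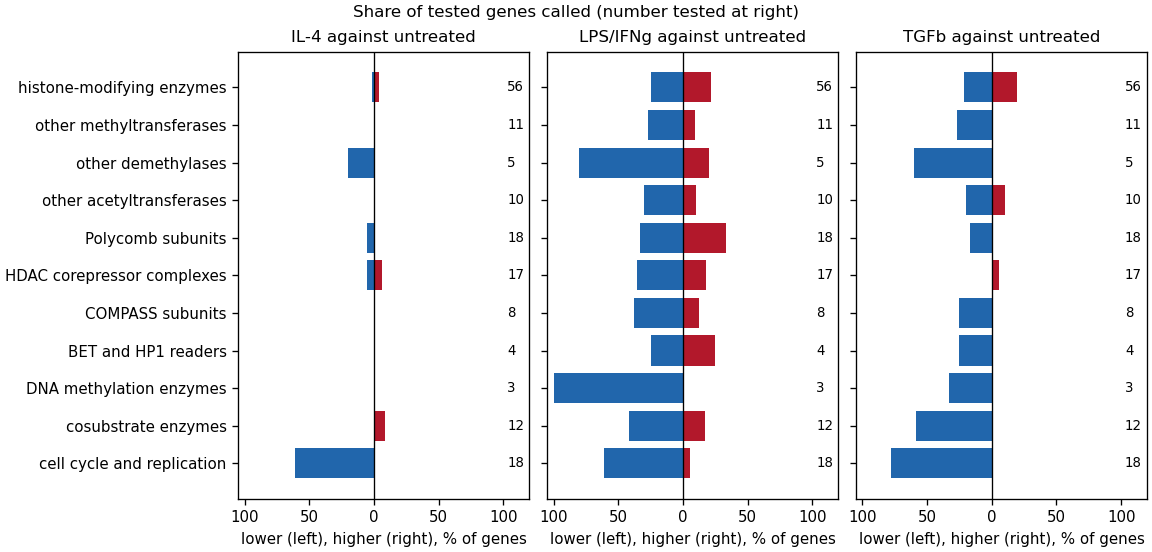
Percentage of tested genes called higher (red, right) and lower (blue, left) with IL-4, LPS/IFNg and TGFb against untreated, for the histone-modifying enzymes and 10 lists of related genes, the number tested standing at the right. With IL-4, 11 of 18 cell cycle genes are lower (3 of 18 with equal array medians) while 3 of 56 histone-modifying enzymes are called (1 of 56 with that scaling).

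The 13 member genes that were not tested were Ezh1, Hdac7, Hdac8, Hdac9, Hdac11, Kdm3b, Kdm4a, Kdm4d, Kdm5c, Kdm5d, Prmt8, Prmt9 and Sirt6. Hdac8 was above background on up to 2 arrays and Kdm3b on 1, the others on 0. No probe annotated to Hdac1 alone was among the members, so Hdac1 was not analysed here.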

How the data were processed

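Total RNA of 15 arrays was measured. The authors deposited linear intensity values, 1 mean bead signal per probe, neither background-corrected nor scaled, and per the file headers each has a detection p-value. The log2 values of the authors' second table come, per the submitters' processing notes, from Partek, whose settings are not given here. That table matched quantile-normalised log2 signals with a chip effect removed (99.995% of values within 0.001), and served as an alternative.

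Background correction used neqc in limma 3.58.1 (R 4.3.3, offset 16), then quantile normalisation and log2. Testing was limited to probes above background (detection p under 0.01) on 3 or more of 15 arrays. A linear model with 4 group means gave two-sided adjusted p-values (lmFit, eBayes, Benjamini-Hochberg over 15434 probes). The scripts were tested on simulated data. The number of arrays limits the precision. Gene names come from the platform annotation; 34885 probes had 1 symbol, 18 several and 10378 none, 34807 matched RefSeq by gene ID, and 1 member probe with several genes was left out.

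Values per array are given for called members at 0.5 or more on the log2 scale whose arrays did not overlap the untreated ones, and for Ezh2, Setd6, Kmt2e, Sirt1, Hdac3 and Hdac4, chosen after their values were seen; between treatments the 5 highest and 5 lowest called genes are named, and 2 of each direction per list. Replicate numbers are from the labels. Same-numbered LPS/IFNg and IL-4 arrays, which also shared a chip, deviated together (correlations of 0.209 to 0.337). No other pair of groups did so for every number. The members and lists were chosen with earlier results of these data known. Alternatives were background, scaling, filter, chip, replicate number, prior, weights and left-out arrays.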

Additional observations from a re-analysis of the deposited data

Results flagged for a closer look

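Over the 56 tested genes, the lowest and highest of the 6 untreated arrays were compared with their neighbours, a check that chance alone passes in about 1 in 20 groups. It singled out 1 gene of the 56, which is under that chance rate, so the gene is given as a description. Kdm6b, untreated replicate 1, read 5.05 on the log2 scale, while the nearest of the other 5 arrays read 5.67 and the highest 5.94, a gap of 0.7 of the whole range. Kdm6b was above background on 4 of 6 untreated arrays.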

How the results depend on the processing

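Counts below are of the 90 tested member probes. The main counts were 5 with IL-4, 43 with LPS/IFNg and 36 with TGFb against untreated, 34 for LPS/IFNg against IL-4, 39 for LPS/IFNg against TGFb and 19 for IL-4 against TGFb. In that order, equal array medians gave 2, 24, 22, 21, 24 and 4, split into 1 higher and 1 lower, 6 and 18, 1 and 21, 9 and 12, 15 and 9, and 4 and 0. This scaling moved the median of all probes to -0.112 with IL-4, -0.145 with LPS/IFNg and -0.201 with TGFb, and to 0.106 for IL-4 against TGFb. Equal medians over the probes above background, an alternative added after seeing the data, gave 5, 41, 34, 30, 37 and 15, with 53.3% higher for IL-4 against TGFb against 42.1%. Cyclic loess gave 20 higher and 14 lower with TGFb, against 17 and 19.

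A minimum of 1.5-fold left 1, 17, 6, 18, 18 and 5, by construction. One probe per gene, with fewer probes by construction, gave 3 with IL-4, 26 with LPS/IFNg and 25 for LPS/IFNg against TGFb. The authors' table gave 12 with IL-4 and 29 for IL-4 against TGFb, and a later fit cannot count the chip terms already removed from it. With the replicate block the counts were 2 with IL-4, 28 with LPS/IFNg and 23 with TGFb. Of 18 same-numbered pairs of arrays from different groups, 10 had deviations correlated above 0.1 (median 0.176, range -0.241 to 0.341). The median was 0.066 over all pairs on the same chip and -0.051 across chips. Each treated array's number is also its chip, so among treated arrays shared number and shared chip cannot be told apart. All 6 pairs of number 1 were among the 10 (0.173 to 0.341). TGFb replicates 2 and 3 ran against their numbers (-0.241 to -0.115) and with the other treatments' 3 and 2 (0.268 to 0.328). In the comparisons with untreated not every pair passed 0.1, so the block is an alternative there. Between LPS/IFNg and IL-4 every pair did, and the block gave 36 against 34 and changed no named call.

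Leaving out 1 array at a time gave 2 to 6 with IL-4, 25 to 43 with LPS/IFNg, 24 to 39 with TGFb, 29 to 36 for LPS/IFNg against IL-4, 33 to 41 for LPS/IFNg against TGFb and 10 to 24 for IL-4 against TGFb. The lowest values came without IL-4 replicate 3 (2), LPS/IFNg replicate 3 (25) and TGFb replicate 3 (10). With IL-4, 3 were left without IL-4 replicate 1, untreated replicate 2 or untreated replicate 6.

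Of 81 named comparisons, 80 kept their sign within all 3 chips, the exception being Hdac6 with LPS/IFNg (0.0016 in chip 1). With a chip block 78 stayed called, and Hdac6 and Kdm2a (adjusted p = 0.051 each) and Setd6 (0.059) with LPS/IFNg did not. Calls were lost in 32 with equal medians, 23 with the replicate block, 17 without the filter on dim probes, 9 with array weights, 8 with the compared groups alone, 7 with cyclic loess, 6 with medians over probes above background, 3 without background correction, 1 with a trended robust prior and 0 with the authors' table, normexp without inferred controls or 1 probe per gene. No sign turned under these. The cause of each loss was not tested. Dim probes limit Hdac10, Kat6a, Kdm5a and Kdm6b.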
